A study of Mus musculus with 18 samples.

Results

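The presynaptic vesicle cycle hosts were 39 genes, chosen by name, whose products build the active zone or prime, fuse, fill or retrieve synaptic vesicles and which also give rise to circular RNAs in the mouse brain. A circle was counted for a gene when the deposited tables gave that gene's name for it. Of 208914 circles on the Illumina platform, 1873 named a presynaptic gene and 1859 could be given to a single host. On Oxford Nanopore (ONT), a long-read platform, 1266 of 166212 circles did so. Circles of all 39 genes were read on both platforms, out of 14507 genes with circles on Illumina and 13505 on ONT.

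RNA came from whole brains of male C57BL/6J mice aged 3 to 4 months, with 3 replicates for each of 3 genotypes. WT mice were wild type. Adar2KO mice were Adar2-/-Gria2R/R: they lacked ADAR2, an enzyme that deaminates adenosine to inosine in double-stranded RNA, and carried an edited form of Gria2, a glutamate receptor gene, in the genome. Adar1-2KO mice were Adar1E861A/E861A Ifih-/- Adar2-/-Gria2R/R, so in addition they carried a catalytically inactive ADAR1 and lacked the gene of an RNA sensor. The Gria2R/R allele was shared by both mutants and absent from WT, so its part in a difference from WT cannot be told apart from that of Adar2-/-. The same holds for Ifih-/- and the inactive ADAR1 in a comparison of Adar1-2KO with Adar2KO. In whole brain, fewer cells of a type and less RNA per cell cannot be told apart.

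In a nerve terminal, vesicles are held at the active zone by large scaffold proteins and made ready by priming factors. Calcium that enters with an action potential binds synaptotagmins, and SNARE proteins then fuse vesicle and plasma membrane. Membrane and vesicle proteins are taken back by adaptors, clathrin and dynamin, and the coat is removed so that the vesicle can be filled again. A circular RNA forms when a splice donor is joined to an acceptor upstream of it, which makes a back-splice junction. Its reads were counted after digestion of linear RNA with RNase R.

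The junctions of the main circle, the circle with the most reads, of 10 presynaptic hosts are given here because a read across such a junction is what was counted for each value that follows. Each line gives the last 20 bases of the circle's last exon in lower case and the first 20 bases of its first exon in capitals, 5′ to 3′ on the strand of the gene. The bases were taken from GENCODE vM21 (build GRCm38), whose exons were matched to the deposited ONT exon blocks by length. For Napb the match was by the end exons and the span. All 10 circles lay wholly in coding sequence.
Pclo: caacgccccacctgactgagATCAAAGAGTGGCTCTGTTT
Unc13b: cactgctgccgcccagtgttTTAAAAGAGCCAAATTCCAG
Syt1: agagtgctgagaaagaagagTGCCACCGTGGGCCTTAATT
Mctp1: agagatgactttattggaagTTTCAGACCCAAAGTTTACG
Napb: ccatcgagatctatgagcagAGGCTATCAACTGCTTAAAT
Sv2b: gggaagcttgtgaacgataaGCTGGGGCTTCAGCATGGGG
Scamp1: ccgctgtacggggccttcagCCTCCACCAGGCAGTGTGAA
Dnm3: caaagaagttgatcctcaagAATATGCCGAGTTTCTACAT
Dnajc6: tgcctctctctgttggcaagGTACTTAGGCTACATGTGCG
Aak1: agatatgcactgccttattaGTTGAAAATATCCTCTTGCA
Each joins the end of an exon to the start of the same exon (Pclo) or of an exon upstream of it, an order that linear splicing of the transcript does not give.

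The 39 hosts gave 261402 back-splice reads over the 9 Illumina libraries, and the reads were concentrated in few of them. Dnm3 alone held 16.1% of the reads, the first 5 hosts 50.1% and the first 10 hosts 72.9%. Among all host genes, 15 of the 39 ranked in the first 1000 by reads, and Dnm3 stood highest at rank 74. Another 10 hosts had fewer than 1000 reads in all. Levels are given in CPM, which scales a host's junction reads to the library's total by the TMM method. They are counted at the junction and not divided by length, and cDNA was made by rolling amplification, so the order of hosts is one of reads and not of molecules.

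**Figure D1:**
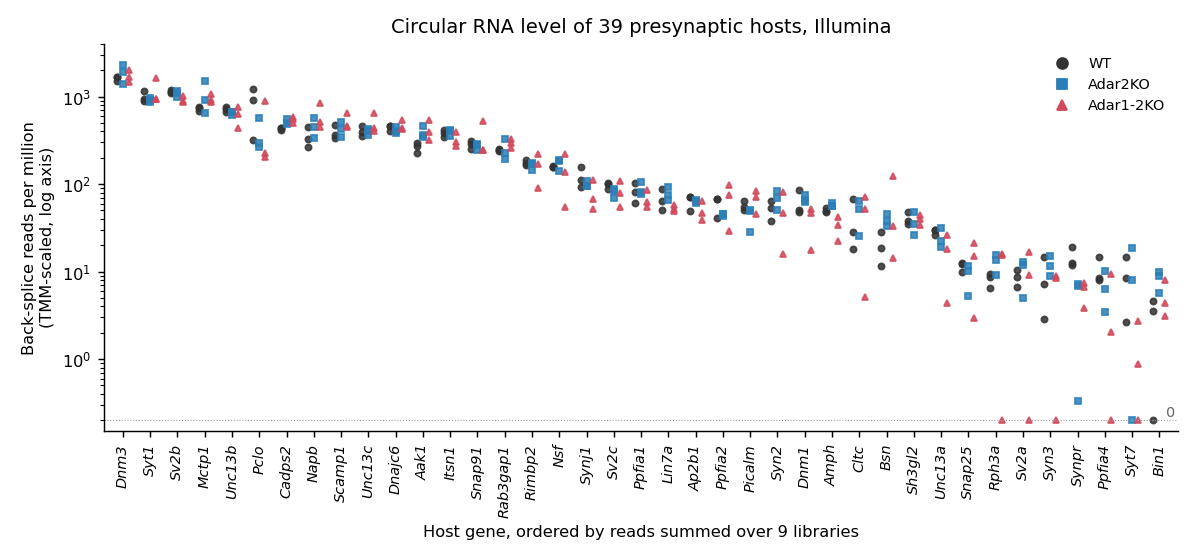
Level in CPM (log axis) of the 39 presynaptic hosts in 9 Illumina libraries, ordered by total reads, with WT as dots, Adar2KO as squares and Adar1-2KO as triangles. Points on the dotted line are libraries with 0 reads. Dnm3 stands highest in most libraries, and the spread within a genotype widens among the low hosts at the right.

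The libraries held 1516772 to 4308264 back-splice reads on Illumina and 186594 to 673705 reads on ONT. Adar1-2KO replicate 3 stood apart: it had the most reads and the fewest circles on Illumina, 21736 against 54244 to 76743 in the others. The WT Illumina libraries were read on the same flow cell, as were Adar1-2KO replicate 2 and 87.35% of Adar2KO replicate 3. Adar2KO replicates 1 and 2 were mostly (90.13% and 95.84%) and Adar1-2KO replicate 3 wholly on others. No flow cell was found for Adar1-2KO replicate 1. Flow cell and genotype therefore cannot be fully told apart in the Illumina comparisons, that between the mutants included. Back-splice reads of Adarb1, the ADAR2 gene, were 84 to 196 in WT, 317 to 353 in Adar2KO and 215 to 759 in Adar1-2KO, so circles of the targeted genes do not check the alleles. Of 8 markers of microglia, 5 had circles on Illumina, with a summed level of 54.1 to 92.9 CPM, and Csf1r, Cx3cr1 and P2ry12 had none, whereas all 10 genes of a neuronal list had circles, with a summed level of 3961 to 5953 CPM.

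Most presynaptic circles were made of exons. By the deposited type, 1507 of the 1859 circles (81.1%) were exonic and held 98.2% of the reads, against 73.9% of circles and 95.1% of reads in the whole table. Intronic circles made up 15.9% and antisense circles 3.07%. The circles found in all 9 libraries numbered 108, or 5.81% (4.53% in the whole table), and they held 83.0% of the presynaptic reads (77.8% in the whole table). At the other end, 954 circles appeared in 1 library only. The median genomic span of an exonic circle was 16538 bases for presynaptic hosts and 11904 bases for all circles.

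The scaffolds of the active zone were led by Pclo. Piccolo, its product, is a very large scaffold protein, and its main circle, chr5:14589424-14590815 on the plus strand (GRCm39), is a single coding exon, exon 3 of the matched GENCODE transcript, of 1392 nucleotides. Pclo was read at 921, 1236 and 316 CPM in the WT libraries, 268, 293 and 568 in those of Adar2KO and 203, 229 and 903 in those of Adar1-2KO. WT replicates 1 and 2 and Adar1-2KO replicate 3 were high, the other 6 libraries were at 568 CPM or less, and every pair of genotypes overlapped. These are CIRIquant counts, which for the main circle fell short of a second Illumina count, CIRI2, unevenly between libraries, as given below. Bsn encodes bassoon, the related scaffold, and 92.7% of its reads came from 1 circle of a single exon (exon 2, 409 nucleotides). Bsn levels were 11.6, 18.8 and 28.6 CPM in the WT libraries, 32.9, 37.6 and 45.0 in those of Adar2KO and 14.2, 33.2 and 123 in those of Adar1-2KO. The value of Adar1-2KO replicate 3 was the highest of the 9, and the other 8 libraries lay between 11.6 and 45.0 CPM. Rimbp2, which links scaffolds to calcium channels, ranged over 90.5 to 224 CPM (median 172). The liprins Ppfia1, Ppfia2 and Ppfia4, adaptors of the active zone, ranged over 55.2 to 105 CPM, 29.2 to 97.1 CPM and 0 to 14.8 CPM. Lin7a, a small adaptor protein, ranged over 49.8 to 92.2 CPM.

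Among the priming factors, Unc13b, Cadps2 and Unc13c carried most of the reads. Unc13 proteins open the SNARE protein syntaxin so that vesicles become ready to fuse. The main circle of Unc13b, chr4:43087903-43115160 on the plus strand, joined exons 2 to 7 into 504 nucleotides. Unc13b was read at 769.9, 726 and 674 CPM in the WT libraries, 660.4, 612 and 665 in those of Adar2KO and 630.4, 753 and 444 in those of Adar1-2KO. All 3 Adar2KO libraries were below the lowest WT library, whereas Adar1-2KO replicate 2 lay within the WT range. Unc13c, the form known from the cerebellum, was read at 390.3, 462 and 354 CPM in the WT libraries, 426, 403 and 362 in those of Adar2KO and 442, 408 and 654 in those of Adar1-2KO, and the 3 genotypes overlapped. Unc13a, the main form of excitatory terminals of the forebrain, was far lower on Illumina, 4.34 to 31.8 CPM. The main circles of the 3 paralogs held exons 2 to 7 in Unc13b, exons 9 to 10 in Unc13c and exons 27 to 30 in Unc13a. These are numbers within each transcript and were not aligned between the genes. The main circle stands for only a part of the reads: 90% of them took 25 circles in Unc13a, 17 in Unc13c and 3 in Unc13b. On ONT the leading circles of Unc13a and Unc13c were other ones.

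Cadps2, a priming factor of dense-core vesicles, was read at 443, 421 and 433 CPM in the WT libraries, 561, 504 and 489 in those of Adar2KO and 557, 506 and 586 in those of Adar1-2KO. All 6 mutant libraries were above the highest WT library. The step was small, however, and neither mutant passed the test against WT. Rab3gap1, a subunit of an enzyme that acts on the vesicle GTPase Rab3, ranged over 195 to 331 CPM, and Rph3a, a Rab3 effector, over 0 to 15.7 CPM.

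Calcium sensors gave 2 of the 4 most abundant hosts. Synaptotagmin 1, the product of Syt1, triggers fast release, and its main circle, chr10:108463114-108478259 on the minus strand, joined exons 6 to 9 (635 nucleotides). Syt1 was read at 950.4, 1150.4 and 891 CPM in the WT libraries, 863, 906 and 975 in those of Adar2KO and 946, 948 and 1627 in those of Adar1-2KO. Adar1-2KO replicate 3 was high, and the other 8 libraries lay between 863 and 1150 CPM. Mctp1 encodes a membrane protein with calcium-binding domains, and its main circle, chr13:76905105-76907939, holds exons 7 to 8 in 302 nucleotides. Mctp1 was read at 695, 752 and 744 CPM in the WT libraries, 927, 658 and 1507 in those of Adar2KO and 919, 871 and 1083 in those of Adar1-2KO. The Adar1-2KO libraries were all above the WT libraries, and Adar2KO replicate 3 was the highest of all while Adar2KO replicate 2 was the lowest. Syt7, the sensor of slower release, was near the floor at 0 to 18.8 CPM.

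Of the SNARE machinery, Napb was abundant and Snap25 was not. Napb encodes a SNAP protein that lets the ATPase NSF take SNARE complexes apart, and 84.6% of its reads came from chr2:148544981-148549125, exons 4 to 7 in 270 nucleotides. These exons were matched by the end exons and the span, and the length is that of the ONT blocks. Napb was read at 446, 332 and 269 CPM in the WT libraries, 452, 338 and 576 in those of Adar2KO and 455, 844 and 511 in those of Adar1-2KO. The lowest Adar1-2KO library, at 455 CPM, was just above the highest WT library, at 446 CPM, and Adar2KO overlapped both. Nsf ranged over 54.2 to 222 CPM and Snap25, a SNARE protein of the plasma membrane, over 2.95 to 21.1 CPM.

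Among vesicle proteins, the SV2 family split widely. SV2 proteins are membrane glycoproteins of the vesicle, and Sv2b was the third host of all 39, with 25094 reads. Its main circle, chr7:74786046-74798836 on the minus strand, joined exons 5 to 9 into 589 nucleotides. Sv2b was read at 1193, 1121 and 1102 CPM in the WT libraries, 1155, 1106 and 985 in those of Adar2KO and 888, 872 and 1006 in those of Adar1-2KO. The Adar1-2KO libraries were all below the lowest WT library and overlapped Adar2KO. Sv2c, at 55.2 to 108 CPM, and Sv2a, at 0 to 16.6 CPM, were much lower. Their main circles held exon 2 of Sv2c and exons 3 to 12 of Sv2a, each by the numbering of its own transcript. Whether these exons correspond to those of the Sv2b circle was not tested.

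Scamp1 encodes a carrier protein of vesicle membranes, and its main circle, chr13:94361403-94369688 on the minus strand, holds exons 3 to 6 in 497 nucleotides. Scamp1 was read at 335, 369 and 480.0 CPM in the WT libraries, 431, 348 and 517 in those of Adar2KO and 452, 459 and 657 in those of Adar1-2KO. Adar1-2KO replicate 3 was the highest, and the genotypes overlapped. The synapsins, which tether vesicles in the reserve pool, were low: Syn2 ranged over 15.8 to 83.1 CPM and Syn3 over 0 to 14.9 CPM. Synpr, a vesicle protein related to synaptophysin, ranged over 0.331 to 19.3 CPM.

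Endocytosis and uncoating included Dnm3, the host with the most reads. Dynamins pinch vesicles from the membrane, and the main circle of Dnm3, chr1:162181089-162183078 on the minus strand, joined exons 3 to 4 into 354 nucleotides between introns of 51825 and 31734 bases. Dnm3 was read at 1513, 1691 and 1658 CPM in the WT libraries, 1909, 1408 and 2306 in those of Adar2KO and 2001, 1659 and 1462 in those of Adar1-2KO. The WT range lay inside the range of Adar2KO. Dnm1, the dynamin of most nerve terminals, was read at 17.6 to 86.1 CPM, with 1301 reads against 42074 for Dnm3.

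Dnajc6 encodes auxilin, which takes the clathrin coat apart, and Aak1 a kinase that acts on the adaptor AP-2. The main circle of Dnajc6, chr4:101470059-101474062, holds exons 7 to 11 (668 nucleotides), and that of Aak1, chr6:86921339-86923975, holds exons 5 to 7 (337 nucleotides). Dnajc6 varied least of all 39 hosts, with a coefficient of variation of 10.4% over the 9 libraries (median of the hosts 28.9%, highest 109% for Syt7). Aak1 was read at 225, 296 and 273 CPM in the WT libraries, 457, 344 and 364 in those of Adar2KO and 396, 323 and 544 in those of Adar1-2KO. All 6 mutant libraries were above the highest WT library, at 296 CPM.

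The other genes of retrieval were lower. Itsn1, a scaffold of endocytic sites, ranged over 276 to 417 CPM, and Snap91, the neuronal clathrin assembly protein AP180, over 245 to 527 CPM. Synj1, a lipid phosphatase needed for uncoating, ranged over 52.1 to 159 CPM. The adaptor genes Ap2b1 and Picalm ranged over 38.6 to 71.8 CPM and 28.3 to 83.3 CPM, and Cltc, the clathrin heavy chain, over 5.11 to 70.5 CPM. The proteins that bend membrane had few circle reads: Amph at 22.5 to 60.9 CPM, Sh3gl2 (endophilin A1) at 26.2 to 48.3 CPM and Bin1 at 0 to 9.93 CPM.

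The weight of a single circle differed widely between hosts. The main circle, the one with the most reads, held a median of 44.0% of its host's reads, from 92.7% in Bsn to 9.68% in Ppfia4. It held more than 50% in 16 hosts and less than 25% in 6. Counting also the circles that share 1 end with the main circle, the median was 61.3%, with 98.0% in Scamp1 and 96.7% in Unc13b. For 17 hosts the second circle shared an end with the first, as in Unc13b, where chr4:43087903-43101874 held 32.9% of the reads. A median of 7 circles, from 1 to 33, covered 90% of a host's reads.

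Reads of the leading main circles, not scaled to depth, were as follows. The Dnm3 circle had 2325, 1644 and 1235 reads in the WT libraries, 2888, 1615 and 3578 in those of Adar2KO and 3598, 1782 and 2568 in those of Adar1-2KO. The Sv2b circle had 2541, 1300 and 1249 reads in the WT libraries, 2291, 1791 and 2067 in those of Adar2KO and 2350, 1427 and 2754 in those of Adar1-2KO. The Syt1 circle had 1655, 1329 and 652 reads in the WT libraries, 1153, 1005 and 1461 in those of Adar2KO and 1614, 1007 and 1988 in those of Adar1-2KO. WT replicate 3, the library with the fewest reads, held the lowest value of each of these 3 circles. The Mctp1 circle had 765, 611 and 511 reads in the WT libraries, 1083, 569 and 2561 in those of Adar2KO and 1487, 1069 and 1691 in those of Adar1-2KO, the Napb circle 1254, 564 and 350 reads in the WT libraries, 951, 646 and 1453 in those of Adar2KO and 1268, 1636 and 1682 in those of Adar1-2KO and the Unc13b circle 1315, 861 and 568 reads in the WT libraries, 870, 778 and 1008 in those of Adar2KO and 1155, 912 and 1415 in those of Adar1-2KO. Adar2KO replicate 3 was the highest for Mctp1 and Adar1-2KO replicate 3 for Napb and Unc13b. The Dnajc6 circle had 933, 718 and 523 reads in the WT libraries, 853, 604 and 1006 in those of Adar2KO and 1043, 676 and 1955 in those of Adar1-2KO, the Scamp1 circle 750, 534 and 494 reads in the WT libraries, 794, 492 and 1050 in those of Adar2KO and 1041, 665 and 2232 in those of Adar1-2KO and the Aak1 circle 506, 414 and 305 reads in the WT libraries, 924, 625 and 898 in those of Adar2KO and 1172, 634 and 1917 in those of Adar1-2KO. Adar1-2KO replicate 3, the library with the most reads, was the highest for all 3.

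Main circles were short and stood between long introns. ONT reads covered 33 of the 39, and 31 could be matched to GENCODE exons, 6 of these by their end exons and span alone. They had a median of 4 exons (1 to 12) and 504 nucleotides (212 to 1848). A single exon made up 3 of them, 5 began at exon 2 of the matched transcript and 0 at exon 1. The median intron upstream had 15000 bases and that downstream 10031, against a median of 2351 for the median introns of the same transcripts. In 24 of the 31, both flanking introns were longer than the median intron of the circle's own transcript. All coding sequence was found in 26 of the 31, and in 8 of these 26 the length was a multiple of 3.

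The circular share compares junction reads with linear reads at the same 2 ends. The deposited CIRI2 tables give it as 2 times the junction reads over that number plus the linear reads, for 8 libraries, after RNase R, so it is not the share in untreated tissue. For the 26 main circles present in all 8, the median share ran from 0.663% in Snap25 to 96.1% in Pclo, with a median of 33.2%. It was above 50% for 8 circles and below 10% for 5. The share of the Pclo circle was 95.5 to 97.3% over the 8 libraries, that of Unc13b 90.9 to 94.2% and that of Dnm3 74.6 to 90.4%. The Scamp1 circle was at 75.0 to 83.6% and that of Sv2b at 65.1 to 80.8%. Circles of Nsf and Snap25, genes of the fusion machinery, were at 1.72 to 6.12% and 0.327 to 1.09%.

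**Figure D2:**
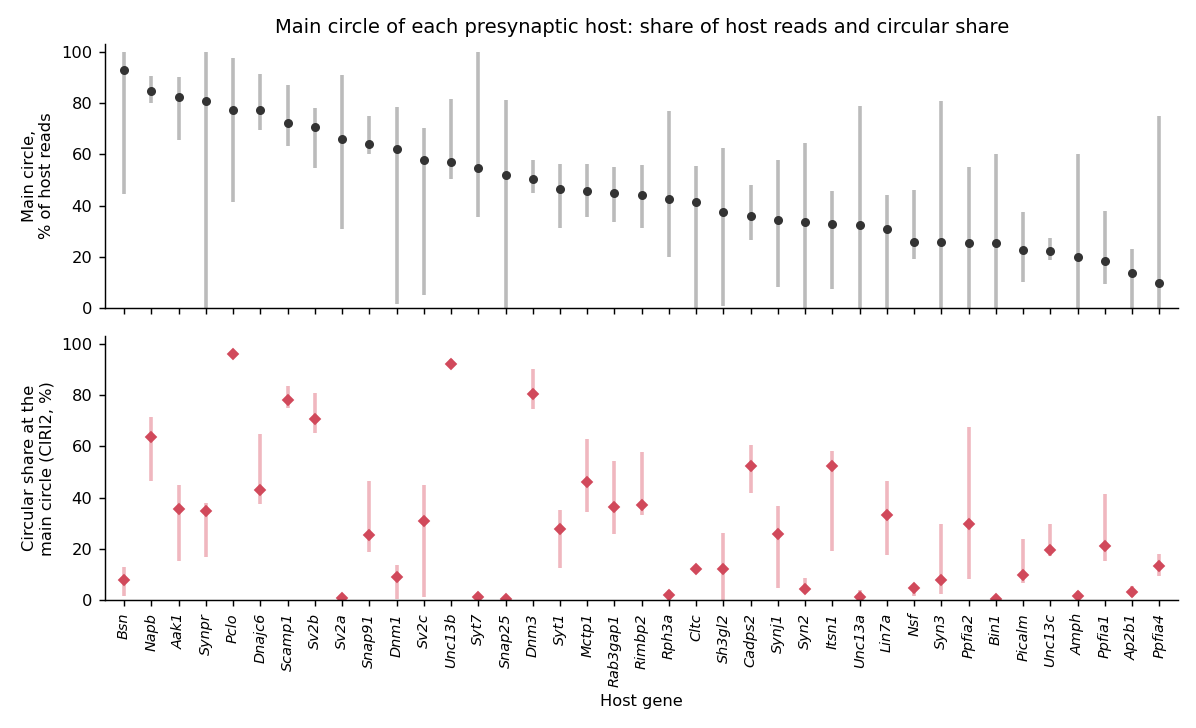
Upper panel: share of a host's back-splice reads in its main circle (%), as the value over 9 Illumina libraries (dot) and the range of the libraries (bar). Lower panel: circular share of the same circle (%, CIRI2), as median (diamond) and range (bar) of the libraries in which it was listed, up to 8. Bsn leads the upper panel at 92.7% yet has a circular share of 7.83%, whereas Pclo and Unc13b exceed 90% in the lower panel.

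The 2 Illumina counts did not always give the same number for the same circle. In the CIRIquant tables, linear reads were listed as 0 for 227 of the 397 presynaptic values with at least 100 back-splice reads (57.2%, against 39.6% of 35972 such values in the whole table). For the main circles of Syt1, Mctp1 and Cadps2 they were 0 in all 9 libraries, although CIRI2 gave median shares of 27.7%, 45.9% and 52.4%. Back-splice reads differed as well: 8 main circles had at least 1 library in which CIRIquant listed under 50% of the CIRI2 reads. For Pclo, CIRIquant listed 2285, 2126 and 243 reads in the WT libraries, 329, 271 and 1399 in those of Adar2KO and 284, 264 and 3451 in those of Adar1-2KO. CIRI2 listed 3427, 2917 and 1402 in WT, 2104, 1843 and 1899 in Adar2KO, against 1517 and 3962 in Adar1-2KO replicates 2 and 3. The ratio of CIRIquant to CIRI2 reads was highest in Adar1-2KO replicate 3, at 0.871, and at most 0.174 in the libraries with CIRI2 counts where CIRIquant listed 329 reads or fewer. ONT gave 251 and 193 ONT reads in the WT libraries, 364, 497 and 370 in those of Adar2KO and 293, 240 and 605 in those of Adar1-2KO. The main circle of Dnm3 in Adar1-2KO replicate 3 had 2568 reads in CIRIquant and 9145 in CIRI2.

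**Figure D3:**
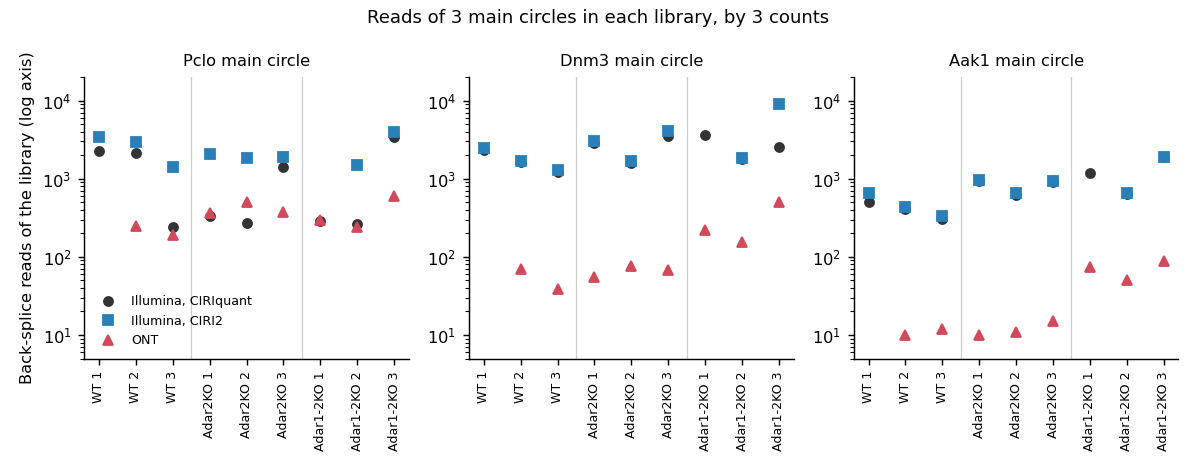
Reads (log axis) of the main circles of Pclo, Dnm3 and Aak1 in each library by CIRIquant (dots), CIRI2 (squares) and ONT (triangles). WT replicate 1 has no ONT value and Adar1-2KO replicate 1 no CIRI2 value here. CIRIquant and CIRI2 lie close together for Aak1 and separate for Pclo in 4 of the 8 libraries with both counts.

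On Illumina, the presynaptic share of all back-splice reads differed between genotypes by no more than the spread of the libraries. It was 1.02% ± 0.0542 in WT, 1.04% ± 0.118 in Adar2KO and 1.06% ± 0.0357 in Adar1-2KO (SD, n = 3 each). Two-sided exact permutation tests gave p = 0.9 for Adar2KO against WT, 0.4 for Adar1-2KO against WT and 0.9 between the mutants, where 0.1 is the smallest p that 3 against 3 can give. On ONT the share was 1.07 and 1.05% in WT, 1.03, 0.960 and 1.01% in Adar2KO, against 1.115, 1.097 and 1.144% in Adar1-2KO, and the 3 genotypes did not overlap. Adar1-2KO exceeded Adar2KO there by 0.119 percentage points, against SDs of 0.0236 and 0.0357. The two-sided exact permutation tests, added after the values were seen, gave p = 0.1 between the mutants and 0.2 for each mutant against WT, the smallest p each can give (adjusted p = 0.2 over the 3).

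No presynaptic host passed the test on Illumina. Reads summed per host were compared with edgeR's quasi-likelihood test over 8369 hosts, with a Benjamini-Hochberg adjusted p under 0.05 as the threshold. Of 39 hosts tested, 0 were called for Adar2KO against WT, 0 for Adar1-2KO against WT and 0 between the mutants, where 0.0717%, 0.0956% and 0.0478% of all hosts were called. At an unadjusted p under 0.05 by edgeR the numbers were 1, 3 and 0 (1.79%, 7.67% and 6.60% of all hosts), and DESeq2 also called 0 in each. The median log2 fold change of the 39 was 0.03, -0.02 and -0.11, beside 0.01, -0.06 and -0.10 over all hosts, and 21, 18 and 17 of the 39 were on the higher side.

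The lowest p-values in both comparisons with WT belonged to Aak1. Its log2 fold change was 0.55 (SE 0.23) in Adar2KO and 0.67 (SE 0.24) in Adar1-2KO, with edgeR adjusted p of 1.0 and 0.544. Napb (0.79, SE 0.29), Bsn (1.54, SE 0.71) and Cadps2 (0.35, SE 0.17) followed in Adar1-2KO, with edgeR adjusted p of 0.555, 0.642 and 0.649, and without Adar1-2KO replicate 3 the values of Bsn and Aak1 were 0.28 and 0.45. Napb was at 0.47 without Adar1-2KO replicate 2. In Adar2KO, Mctp1 (0.50, SE 0.25), Pclo (-1.13, SE 0.58) and Cadps2 (0.26, SE 0.17) followed, all with an edgeR adjusted p of 1.0. The Mctp1 value was 0.13 without Adar2KO replicate 3 and the Pclo value -0.72 without WT replicate 2. The Pclo value rests on CIRIquant reads, which were uneven against CIRI2, and on ONT it was -0.16. The Aak1 value in Adar2KO had the opposite sign on ONT, -0.51 (SE 0.36), and that in Adar1-2KO was 0.93 (SE 0.36) there. Between the mutants, Amph (-0.81, SE 0.40), Syt7 (-2.92, SE 1.64), Dnm1 (-0.80, SE 0.46) and Syt1 (0.36, SE 0.22) came first, with edgeR adjusted p from 0.763 to 0.854. Without Adar1-2KO replicate 3, Syt1 was at 0.05 and Dnm1 at -0.45, and Syt7 was at -1.77 without Adar2KO replicate 1.

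Single circles on Illumina gave the same count of calls. Of 376 presynaptic circles tested among 38297, 0 were called in each comparison (all circles 0.0209%, 0.0627% and 0.0209%), with 8, 21 and 27 at an unadjusted p under 0.05 by edgeR (2.13%, 5.59% and 7.18%, against 1.82%, 6.74% and 6.38% of all circles). DESeq2 called 0, 0 and 1. The circle it called was Sv2b chr7:74904986-74908198, with 4, 10 and 9 reads in WT, 0 in all 3 Adar2KO libraries and 26, 15 and 15 in Adar1-2KO. Against a floor of 3 reads over the Adar2KO group it was at least 8.64-fold higher in WT and at least 15.1-fold higher in Adar1-2KO, and its edgeR adjusted p was 1.0 and 0.764. CIRI2 also listed 0 reads in Adar2KO. Other circles were at 0 in all Adar1-2KO libraries: Itsn1 chr16:91660145-91686112 had 4, 5 and 4 reads in WT and 13, 17 and 2 in Adar2KO, Unc13a chr8:72110647-72111445 had 3, 9 and 10 in WT and 4, 10 and 4 in Adar2KO, and Pclo chr5:14724969-14732401 had 7, 9 and 5 in WT and 8, 4 and 5 in Adar2KO. They were at least 6.05-, 10.2- and 9.78-fold higher in WT, with edgeR adjusted p of 0.718 for each. In Adar1-2KO against Adar2KO, the Itsn1 and Pclo circles were at least 13.2- and 7.02-fold lower, as was Pclo chr5:14570856-14590815 by at least 12.4-fold, with 8, 12 and 0 reads in WT and 17, 9 and 4 in Adar2KO (edgeR adjusted p = 0.764 for each). A circle at 0 in all libraries of a genotype passed the filter of 5 reads in 3 libraries through the other genotypes. A bound of this kind, here and on ONT, is therefore a description and not the result of a test. The bounds of the circles at 0 in Adar1-2KO count the depth of Adar1-2KO replicate 3, the library with the most reads and the fewest circles. Without it, an alternative chosen after the values were seen, they were 3.50, 5.92 and 5.65 against WT, and 7.64, 4.06 and 7.16 against Adar2KO.

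The main circles of Aak1 and Mctp1 were also among those of lowest p. The Aak1 circle had a log2 fold change of 0.79 (SE 0.28, edgeR adjusted p = 1.0) in Adar2KO and 1.03 (SE 0.28, edgeR adjusted p = 0.689) in Adar1-2KO, and the Mctp1 circle one of 0.87 (SE 0.35, edgeR adjusted p = 1.0) in Adar2KO. Sv2b chr7:74775319-74797474 had 0 reads in all 3 WT libraries, 2, 13 and 3 in Adar2KO, against 13, 0 and 19 in Adar1-2KO, which makes it at least 5.32-fold higher in Adar2KO (edgeR adjusted p = 1.0). On ONT the main circles of Aak1 and Mctp1 had the opposite sign in Adar2KO against WT, at -0.85 (SE 0.43) and -0.19 (SE 0.35). The authors' deposited tables of differential circles listed 6 presynaptic circles for Adar2KO and 1466 for Adar1-2KO against WT, 0 of them with an adjusted p under 0.05. These comparisons differed in size, with 772 circles in all for Adar2KO and 160909 for Adar1-2KO. Of all circles with an adjusted p in them, 46 of 772 (5.96%) and 54 of 157806 (0.0342%) were under 0.05. The 2 percentages and the 2 numbers of presynaptic circles are therefore not comparable with each other.

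Of the main circles whose share of the host was compared between genotypes, that of Aak1 was singled out after the values were seen. By CIRIquant it held 70.8% ± 4.51 of the Aak1 reads in WT, 80.1% ± 2.36 in Adar2KO and 88.5% ± 1.45 in Adar1-2KO (SD, n = 3 each), and the 3 groups did not overlap. Each exact permutation test gave p = 0.1, the smallest possible, and an adjusted p of 0.776 over the 33 values tested. Of these 33 tests, 4 reached that p: the 3 of Aak1 and that of the Dnm3 main circle, at 48.3% in WT and 53.5% in Adar2KO. With CIRI2 the Aak1 share was 74.2, 64.2 and 68.6% in WT, 75.4, 77.0 and 78.1% in Adar2KO, against 83.9 and 71.7% in Adar1-2KO replicates 2 and 3. By that count Adar1-2KO overlapped both WT and Adar2KO, and the difference between the mutants was 0.965 in place of 8.44 percentage points. On ONT, with 19 to 126 Aak1 reads per library, the share was 33.3 and 63.2% in WT, 38.5, 23.9 and 38.5% in Adar2KO, against 64.9, 63.0 and 70.6% in Adar1-2KO. There Adar2KO was not above WT, and Adar1-2KO replicate 2 lay below WT replicate 3.

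Circular shares were also compared between genotypes, and 0 of the presynaptic circles passed. The test was made with limma on the log2 ratio of back-splice to linear CIRIquant reads, over 6353 circles. Of 69 presynaptic circles, 0 were called in each of the 3 comparisons (0.0787%, 0.0944% and 0.189% of all circles), and 2, 3 and 5 had an unadjusted p under 0.05 (2.93%, 4.82% and 5.12% of all circles). With the CIRI2 reads, 0 of 124 were called. A ratio with linear reads of 0 rests on the pseudocount of 0.5, and the lowest p of Adar2KO against WT was that of the Pclo main circle, whose CIRIquant linear reads were 0 in WT.

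On ONT, 4 presynaptic hosts passed the test between the mutants. Of 38 hosts tested among 5266, edgeR called 3 higher and 1 lower in Adar1-2KO than in Adar2KO, where 1.04% of all hosts were called. Dnm3, Syt1 and Aak1 rose and Sv2b fell. Against WT, of which 2 libraries were used on ONT, 0 of the 38 were called in Adar2KO (0.076% of all hosts) and 0 in Adar1-2KO (0.114%), with 3 and 7 at an unadjusted p under 0.05 by edgeR (7.89% and 18.4%, against 5.91% and 10.2% of all hosts) and 0 called by DESeq2. The median log2 fold change of the 38 was 0.01 and 0.15 against WT and 0.16 between the mutants, beside 0.13, 0.15 and 0.00 over all hosts.

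Dnm3 had 223 and 179 ONT reads in the WT libraries, 273, 284 and 344 in those of Adar2KO and 590, 369 and 988 in those of Adar1-2KO. Its log2 fold change was 0.90 (SE 0.18, edgeR adjusted p = 0.0255), with a mean of 1528 ± 130 CPM in Adar1-2KO, 818 ± 98.5 in Adar2KO and 1166 ± 116 in WT (SD). The 3 genotypes did not overlap in CPM, and WT lay between the mutants. Syt1 had 200 and 204 ONT reads in the WT libraries, 296, 268 and 311 in those of Adar2KO and 549, 377 and 1164 in those of Adar1-2KO. Its log2 fold change was 1.01 (SE 0.20, edgeR adjusted p = 0.0255), and WT again lay between the mutants, at 1177 ± 81.9 CPM against 1603 ± 322 and 799 ± 118.

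Aak1 had 30 and 19 ONT reads in the WT libraries, 26, 46 and 39 in those of Adar2KO and 114, 81 and 126 in those of Adar1-2KO, the fewest reads of the 4. Its log2 fold change was 1.44 (SE 0.31, edgeR adjusted p = 0.0396). The Adar1-2KO libraries, at 214 to 313 CPM, were all above the others, and WT and Adar2KO overlapped. Sv2b had 284 and 272 ONT reads in the WT libraries, 585, 673 and 815 in those of Adar2KO and 412, 272 and 672 in those of Adar1-2KO. Its log2 fold change was -0.80 (SE 0.17, edgeR adjusted p = 0.0367), and its means were 1075 ± 55.3 CPM in Adar1-2KO, 1875 ± 242 in Adar2KO and 1618 ± 40.6 in WT. Every Adar1-2KO library was below every other library.

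These calls did not hold in every fit. DESeq2 called all 4 hosts, with DESeq2 adjusted p from 1.58e-05 to 0.00265. All 4 were also called by edgeR with DESeq2 size factors, with at least 10 reads in 3 libraries and without a filter on low counts. With replicate number as a block, Dnm3, Syt1 and Sv2b were called and Aak1 was not. With only the 2 groups compared, 0 of the 4 hosts were called. Leaving out any 1 library other than Adar1-2KO replicate 3 also left 0 called, WT replicates 2 and 3 and all 3 Adar2KO replicates included, with adjusted p from 0.0519 to 0.226. Without Adar1-2KO replicate 3 all 4 remained, with adjusted p from 0.00256 to 0.0118. The direction held in each of these fits, and the cause was not tested.

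**Figure D4:**
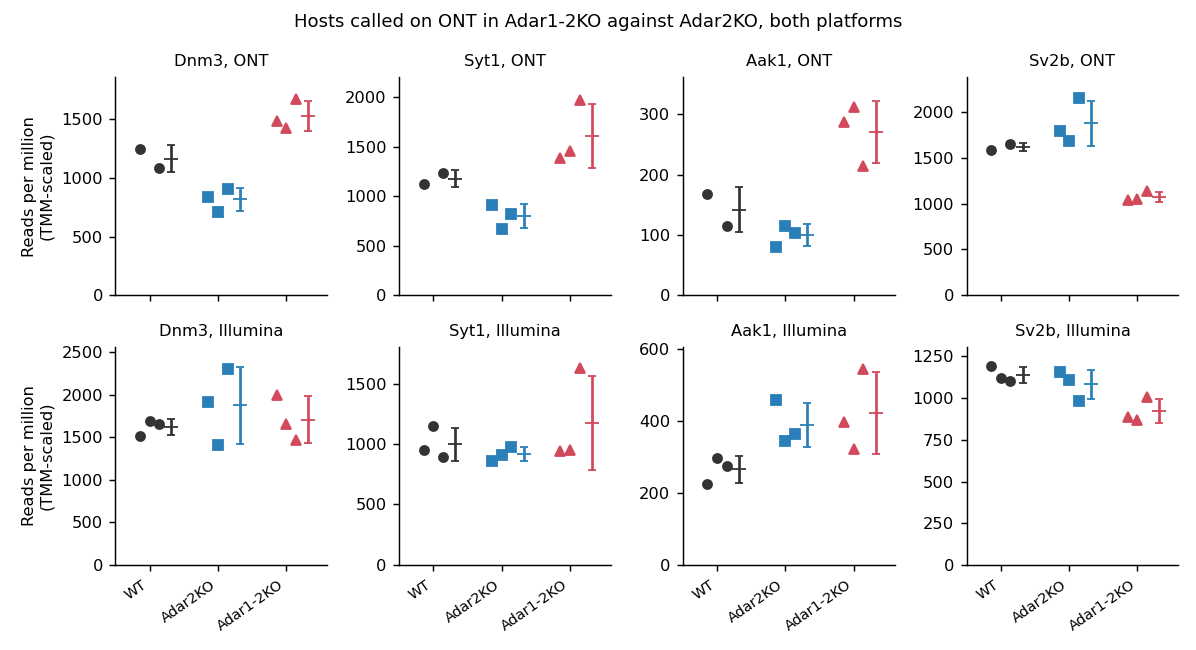
Level in CPM of the 4 hosts called on ONT between the mutants, on ONT (upper row) and Illumina (lower row), one point per library with the group mean and SD beside it. On ONT the Adar1-2KO points stand clear of Adar2KO for all 4 hosts, and on Illumina they overlap Adar2KO in each panel.

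On Illumina, the same contrast was called for 0 of the 4. Its log2 fold change was -0.14 (SE 0.20) for Dnm3, 0.36 (SE 0.22) for Syt1, 0.12 (SE 0.23) for Aak1 and -0.23 (SE 0.16) for Sv2b. With CIRI2 reads, which covered only replicates 2 and 3 of Adar1-2KO, it was 0.33, 0.58, 0.36 and -0.16 (edgeR adjusted p from 0.362 to 0.742). These have the sign seen on ONT, but replicate 3 alone stood above Adar2KO for Dnm3 and Syt1 in unscaled reads. Dnm3 had 4722 and 13800 CIRI2 reads in replicates 2 and 3, against 3948 to 8556 in Adar2KO. Syt1 had 3309 and 9360, against 2903 to 4360. Among the 5 Illumina libraries read wholly or mostly (87.35% of junction reads in Adar2KO replicate 3) on 1 flow cell, the contrast comes down to 1 library against 1, Adar1-2KO replicate 2 and Adar2KO replicate 3. There the values were -0.47, -0.04, -0.17 and -0.17, with no replicate of either mutant. Dnm3 was also above 0 without Adar2KO replicate 3 (0.03) and when scaled by mapped reads (0.04), Aak1 was at -0.12 and Syt1 at 0.05 without Adar1-2KO replicate 3, and the sign of Sv2b held in each fit. The difference between the platforms was not tested.

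Summed levels of some marker lists also differed between genotypes. The summed level of 9 cerebellar genes on ONT, 1 of them (Pcp2) without circles, was 1432 to 1664 CPM in WT, 1986 to 2563 in Adar2KO and 786 to 1452 in Adar1-2KO. For 9 genes of cortex and hippocampus, with Neurod6 at 0, it was 1488 to 1543, 967 to 1352 and 916 to 1078. On Illumina, where 6 of the 9 cerebellar genes had circles, the cerebellar list was at 1267 to 1353, 1448 to 1793 and 631 to 1227 CPM and the list of cortex and hippocampus at 1515 to 1643, 1483 to 1647 and 2361 to 2960 CPM. In Adar1-2KO the list of cortex and hippocampus was thus below WT on ONT but above WT on Illumina. The cerebellar list of Adar1-2KO overlapped WT on ONT. A list of 8 genes of ependyma and choroid plexus was lower in both mutants than in WT on both platforms, at 751 to 811, 309 to 504 and 382 to 525 CPM on ONT (Foxj1 at 0) and at 797 to 972, 424 to 581 and 522 to 793 CPM on Illumina (Ttr and Foxj1 at 0). The oligodendrocyte list (Mog at 0) was at 684 to 761, 849 to 1141 and 992 to 1205 CPM on ONT. On Illumina it was at 528 to 562, 516 to 560 and 560 to 588 CPM. The neuronal list overlapped between the genotypes on both platforms. The part of these lists in the calls was not tested.

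At the level of circles, 2 of 115 presynaptic circles were called on ONT, both higher in Adar1-2KO than in Adar2KO (0.473% of 10367 circles). They were the main circles of Dnm3 and Aak1. The Dnm3 circle had 70 and 39 ONT reads in the WT libraries, 56, 77 and 68 in those of Adar2KO and 224, 156 and 507 in those of Adar1-2KO, a log2 fold change of 1.90 (SE 0.27, edgeR adjusted p = 0.0145). The Aak1 circle had 10 and 12 ONT reads in the WT libraries, 10, 11 and 15 in those of Adar2KO and 74, 51 and 89 in those of Adar1-2KO, a log2 fold change of 2.46 (SE 0.37, edgeR adjusted p = 0.0208). In both, the lowest Adar1-2KO library was above the highest of the other genotypes, and the log2 fold change of the circle was larger than that of its host, a difference that was not tested. Leaving out 1 library at a time gave 0 to 5 called presynaptic circles, and the Dnm3 circle was called in 4 of the 8 such fits and the Aak1 circle in 1. On Illumina the same circles had log2 fold changes of -0.28 and 0.23, or 0.52 and 0.27 with CIRI2 reads, which lacked Adar1-2KO replicate 1.

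Against WT, 0 presynaptic circles were called on ONT for Adar2KO (0.00965% of all circles) and 0 for Adar1-2KO (0.0%), with 5 and 11 at an unadjusted p under 0.05 by edgeR (4.35% and 9.57%, against 4.21% and 7.32% of all circles). DESeq2 called 0 and 1, the latter the Dnm3 main circle. Pclo chr5:14762431-14800618 had 10 and 4 ONT reads in WT, 11, 16 and 20 in Adar2KO and 0 in all 3 Adar1-2KO libraries. It was at least 15.4-fold higher in WT and at least 17.6-fold higher in Adar2KO, with edgeR adjusted p of 0.315 and 0.0884. Without Adar1-2KO replicate 3 these bounds were 7.85 and 8.98. Sv2b chr7:74855838-74856670, the second circle of Sv2b, had 80 and 75 reads in WT, 108, 135 and 149 in Adar2KO, against 38, 46 and 145 in Adar1-2KO (log2 fold change -1.25 against WT, SE 0.34, edgeR adjusted p = 0.456). The main circles of Dnm3 (1.24, SE 0.31) and Aak1 (1.61, SE 0.43) had edgeR adjusted p of 0.406 and 0.436 in Adar1-2KO against WT.

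For Adar2KO against WT on ONT, the main circles of Syt1 (-0.62, SE 0.25) and Sv2b (0.53, SE 0.22) were among those of lowest p, each with an edgeR adjusted p of 1.0. Cadps2 chr6:23302293-23355926 had 12 and 15 reads in WT, 0 in all 3 Adar2KO libraries and 30, 0 and 0 in Adar1-2KO, and was at least 26.4-fold higher in WT. Mctp1 chr13:76971092-76975920 had 0 reads in both WT libraries and 7, 5 and 2 in Adar2KO, at least 1.59-fold higher. Neither circle was called by edgeR with the filter on low counts. The Cadps2 circle passed that filter through the WT libraries and Adar1-2KO replicate 1. Syt1 chr10:108419735-108478259 had 57, 41 and 39 reads in Adar2KO, against 86, 93 and 200 in Adar1-2KO (log2 fold change 1.28, SE 0.30, edgeR adjusted p = 0.154).

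Among hosts, those of lowest p against WT on ONT included Cltc, whose log2 fold change was 1.28 (SE 0.66) in Adar2KO and 2.28 (SE 0.66) in Adar1-2KO, with edgeR adjusted p of 0.85 and 0.234. Cltc had 2 and 10 reads in WT, 24, 55 and 18 in Adar2KO, against 59, 42 and 123 in Adar1-2KO. In Adar1-2KO, Dnajc6 (0.84, SE 0.26), Synj1 (-1.22, SE 0.38) and Sv2b (-0.59, SE 0.19) followed with edgeR adjusted p from 0.257 to 0.261. In Adar2KO, Dnm3 (-0.51, SE 0.20), Syt1 (-0.56, SE 0.22) and Unc13a (1.81, SE 0.80) had edgeR adjusted p from 0.817 to 0.821.

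The order of the hosts was similar on both platforms. Over the 39 hosts and the 8 libraries with both kinds of reads, the share of presynaptic reads had a Spearman correlation of 0.91 and a Pearson correlation of 0.88 on the log2 scale, given as a description, since the labels describe both kinds of library as made from the same kind of amplified cDNA. The leading ONT circle was the Illumina main circle for 23 hosts. Of the ONT reads, 88.5% lay in circles also listed on Illumina (80.1% for all hosts). Pclo took 2.06 times and Dnm3 0.613 times its Illumina share on ONT, and Aak1 0.409 times.

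**Figure D5:**
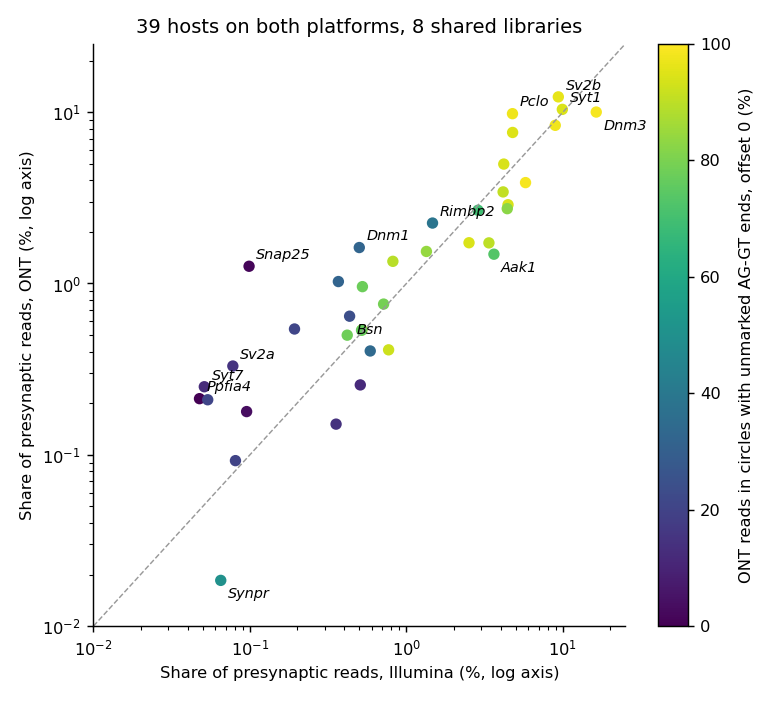
Share of presynaptic reads of each of the 39 hosts on Illumina and on ONT (both log axes, %), summed over the 8 libraries read on both. The color gives the percentage of ONT reads in circles listed with AG and GT at their ends without offset or mark. The dashed line marks equal shares. Abundant hosts lie near the line, and Snap25 lies furthest above it, at 12.8 times its Illumina share.

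The splice ends listed for ONT circles differed widely between hosts. In the deposited ONT tables, 87.0% of presynaptic reads lay in circles whose ends carried AG and GT without offset or mark, against 75.6% for all hosts, and 13 hosts were above 90%. For Snap25 the value was 1.22%. Its ONT reads were 29 and 20 in the WT libraries, 40, 31 and 23 in those of Adar2KO and 74, 40 and 152 in those of Adar1-2KO, and its leading ONT circle, chr2:136605513-136623015, was absent from the Illumina tables. Syt7, Ppfia4, Sv2a and Bin1, at 4.88, 4.47, 4.24 and 3.90 times their Illumina shares, had between 0 and 20.6% of their reads in such circles.

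Of 97 other genes of the vesicle cycle, 91 had circles on Illumina, and Rims2 (299094 reads), Rims1 (228930) and Erc1 (87466), all active zone scaffolds, each had more reads than Dnm3. On Illumina 0 of 70 tested passed the edgeR test in each comparison (0.0717%, 0.0956% and 0.0478% of all hosts). Their medians were -0.01, -0.01 and 0.00 beside 0.01, -0.06 and -0.10 over all hosts. On ONT the medians were 0.40, 0.42 and 0.20, beside 0.13, 0.15 and 0.00 over all hosts. On ONT 1 of 69 fell in Adar2KO against WT (0.076% of all hosts were called): Cplx2, a SNARE regulator, with a log2 fold change of -3.14 (SE 0.41, edgeR adjusted p = 0.00615). WT had 2 ONT libraries, and Cplx2 had 399 reads on ONT but 27 on Illumina. Erc1 (1.59, SE 0.30, edgeR adjusted p = 0.0206) and Rab3gap2 (1.44, SE 0.25, edgeR adjusted p = 0.0127), a partner of Rab3gap1, rose in Adar1-2KO against Adar2KO, and 0 of 69 were called in Adar1-2KO against WT. Of all ONT hosts, 1.04% and 0.114% were called in these comparisons.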

How the data were processed

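Circular RNAs of mouse brain were measured in 9 Illumina and 8 ONT libraries. Per the file headers, the Illumina counts of back-splice and linear reads were made with CIRIquant 1.1.2, and the deposited junction ratio is a fraction of the reads. The values of the Adar1-2KO tables stood 1 column to the right of their header and were read accordingly. CIRI2 counts covered 8 libraries and the ONT counts per circle were used as deposited. The submitters' processing notes name BWA 0.7.17 and GRCm39. The authors' CPM values, in a column headed score, were not used. The authors' deposited comparison tables give log2 fold changes, Wald scores, p-values and a mean normalized signal from DESeq2.

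The 39 genes and all gene lists were chosen with earlier results of these data known. Reads were summed per host and tested with edgeR 4.0.16 (quasi-likelihood, TMM, at least 5 reads in 3 libraries, all libraries of a platform in 1 fit, Benjamini-Hochberg threshold 0.05). For circular shares, limma 3.58.1 compared log2 ratios of back-splice to linear reads, each plus 0.5, where every library had 20 or more reads of both kinds together. DESeq2 1.42.0 was an alternative. R 4.3.3 was used, and the scripts were tested on simulated data. Values in every library are given for the 10 hosts and 10 main circles with the most reads, and tests for called features and the 4 hosts and 4 circles of lowest p per comparison, each platform apart. Aak1, Bsn, Snap25 and Cltc values by library, and the Aak1 share, were added after their values were seen. Replicates of a genotype differed by at least 10.4 times the variance of counting noise. The labels call them replicates without naming animals, so p-values measure the spread between these libraries.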

Additional observations from a re-analysis of the deposited data

How the results depend on the processing

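Of the values of named hosts and circles, 836 kept their direction and side of the threshold, 46 lost a call, 9 gained one, 2 moved and 8 reversed. The reversals were all of contrasts between the mutants on Illumina, none of them called. With 1 flow cell, an alternative chosen after seeing the data, Syt1 was at -0.036, Aak1 at -0.17 and its main circle at -0.090. With CIRI2 counts, which lacked Adar1-2KO replicate 1, Dnm3 was at 0.33 and its main circle at 0.52. With mapped reads Dnm3 was at 0.037. With 1 library left out, Dnm3 ranged from -0.30 to 0.030 and Aak1 from -0.12 to 0.28. With CIRI2 counts, also chosen after seeing the data, the Aak1 share of host moved to 8.81 percentage points for Adar1-2KO minus WT and 0.965 between the mutants. Without a filter on low counts, edgeR called 1 Illumina host (Pclo) in each mutant against WT, 2, 3 and 2 Illumina circles in the 3 comparisons, 1 ONT host (Cltc) in Adar1-2KO and 1 ONT circle (Cadps2) in Adar2KO against WT. The Pclo calls rest on CIRIquant reads: its main circle had 329 in Adar2KO replicate 1, where CIRI2 listed 2104. In WT replicate 1 the 2 counts were 2285 and 3427. On ONT, Pclo was at -0.16 in Adar2KO and -0.51 in Adar1-2KO against WT and was not called. Of the Cltc ONT reads, 31.8% lay in circles with AG and GT ends without offset or mark. DESeq2 called 1 Illumina circle, 7 ONT circles and the ONT hosts Dnm3, Syt1, Aak1 and Sv2b between the mutants, and 1 ONT circle in Adar1-2KO against WT. With only the 2 groups compared, 0 ONT hosts were called between the mutants. The cause was not tested. Leaving out 1 library at a time gave 0 to 4 ONT hosts and 0 to 5 ONT circles between the mutants, and 0 to 2 circular shares in each of the 3 comparisons. The presynaptic share differed by -0.0386 to 0.0796 percentage points for Adar2KO minus WT (below 0 without WT replicate 3 or Adar2KO replicate 3), by 0.0129 to 0.0671 for Adar1-2KO minus WT and by -0.0391 to 0.0791 between the mutants, where the lowest value came without Adar2KO replicate 2. Replicate numbers did not pair the libraries: same-numbered deviations had correlations of -0.00953 to 0.00935 on Illumina and -0.0490 to 0.0464 on ONT. With the replicate block, 1 ONT circle and 3 ONT hosts were called between the mutants. Scaling by mapped reads moved the median Illumina host from 0.01, -0.06 and -0.10 to 0.20, 0.31 and 0.09, and 0 presynaptic hosts were called there. Hosts with few reads, such as Bin1 and Syt7, could not be measured precisely at this depth.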

Other observations

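The main circles of 4 presynaptic hosts were intronic by the deposited type: those of Ppfia4, Sh3gl2, Syn3 and Synpr. That of Synpr lay on the strand opposite to the gene, the only one of 39 to do so, and held 80.9% of the reads given to Synpr. Synpr took 0.284 times its Illumina share on ONT.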
